A study of Mus musculus with 11 samples.

Results

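The Egr3/Myc/Cd83 B cells of mouse lung are B cells that carried transcripts of at least 1 of 3 early activation genes. They were chosen by counts of unique molecular identifiers (UMIs, 1 per captured transcript) in single cells. A barcode counted as a B cell if it had 1000 to 30000 UMIs with at most 14% of them mitochondrial, at least 3 UMIs of Cd79a and Cd79b together, and 0 UMIs of Cd3e. A B cell was taken as a member if its UMIs of Egr3, Myc and Cd83 summed to at least 4 and those of Zbtb32, Bhlhe41 and Sox5 to 0; the plots call members gated cells. Of 81983 barcodes, 69267 passed the cell filter, 16064 of these were B cells and 5783 were members. The remaining B cells were 8452 with an Egr3, Myc and Cd83 sum of 0 to 3, called here other B cells, 937 with UMIs of Zbtb32, Bhlhe41 or Sox5 and a sum of 0 to 3, and a remainder in neither set.

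Whole lungs were dissociated with enzymes, red cells were lysed, and single cells were profiled with droplet 3′ RNA sequencing, with no sorting step. The libraries came from 1 wild type (+/+) mouse lung sample (WT), 3 samples of p21 heterozygotes (+/-, p21Het), 5 of p21 mTert (+/mTert) and 2 of p21 mTertCD (+/mTertCD). All groups other than WT thus have 1 altered allele of p21, the cell-cycle inhibitor encoded by Cdkn1a, and mTert is the mouse telomerase reverse transcriptase gene. The age labels give 18 months, except 19 for p21Het_1 and 20 for p21mTert_1, whereas every title gives 18 months. The labels do not say which cells drive the allele's expression in lung, or whether libraries of 1 group came from separate animals, so that p-values here measure the spread between these libraries, which may be in part technical. WT has no replicate and entered no test between genotypes.

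B cells are stimulated through the B cell receptor, CD40 and Toll-like receptors. Soon afterwards they transcribe early growth response (EGR) and NR4A nuclear receptor genes, NF-kB feedback genes and Myc, which drives growth and ribosome synthesis. Egr3 is a transcription factor that restrains antigen receptor signalling, Cd83 encodes a surface protein that stabilises MHC class II, and Irf4 encodes a transcription factor whose level directs B cells towards class switching and plasma cell fate. Enzymatic dissociation of tissue at body temperature is also known to induce immediate early genes.

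Library totals ran from 42038434 to 85988955 UMIs, and members had a median of 3765 to 6151 UMIs per library. B cells made up 14.8% to 39.9% of cells in 10 libraries and 2.65% in p21mTertCD_1, which held 174 B cells, 39 members and a median of 9404 UMIs per B cell. That library stands apart, and results that rest on it are given with and without it. The library source label separates WT_1, p21Het_1 and p21mTert_1 from the other 8 libraries, and the median mitochondrial share of their cells was 6.30% to 6.58% against 2.82% to 4.28%. Of 68646 distinct barcodes 617 occurred in more than 1 library, and among 5777 distinct member barcodes 6 did, with at most 1 shared by any pair. The doublet caller Scrublet marked 4.22% of members and 3.55% of the 8452 other B cells. Among the 4781 other B cells drawn to match the members' UMI totals, as described below, it marked 5.08%. Marked cells were kept.

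The members were identified mostly through Cd83. Of the 5783 members, 98.0% had a Cd83 UMI, 59.9% an Egr3 UMI, 53.5% a Myc UMI and 33.7% all 3. Cd83 alone carried 21.4% of the members over the threshold, against 0.67% for Egr3 alone and 0.22% for Myc alone. The median sum was 6 and the highest 70. Just inside the threshold, at a sum of 4, were 1249 cells with a median of 4143 UMIs, and just outside it, at 3, were 1697 cells with a median of 3992. In CPM, the UMIs of a gene per 1000000 UMIs summed over the cells of a library, Cd83 was at 851 ± 136 (SD, n = 11 libraries) in members and 209 ± 50.8 in other B cells. Egr3 was at 407 ± 68.9 against 28.4 ± 16.5 CPM, and Myc at 244 ± 42.6 against 28.6 ± 8.10 CPM. These 3 values follow from the selection and were not tested.

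The members were B cells by genes the selection did not use. Ms4a1, encoding CD20, was at 711 ± 70.2 CPM in members and 633 ± 169 in other B cells. Pax5, the factor that maintains B cell identity, was at 308 ± 77.7 and 283 ± 102 CPM. Neither of these differences passed the test described next, and the values of the states overlapped. Of the 11 listed B cell identity genes, however, 4 were called higher in members by that test and 0 lower, with a median log2 difference of 0.10. These were Cd74, H2-Aa, Bank1 and Fcmr. Among all tested genes 6.43% were called higher. When both states were restricted to cells with Ms4a1 and Pax5 UMIs, as described next, 1 of the 11 was called in either direction. Transcripts of other lung cells were present in both states. Lyz2, a macrophage gene, gave a UMI in 58.8% of members and 58.8% of other B cells on average over libraries, Sftpc, the surfactant gene of alveolar type 2 cells, in 90.7% and 89.4%, and Cd3d, a T cell gene, in 1.36% and 1.16%. Trac, another T cell gene, gave a UMI in 1.59% ± 1.29 of members and 0.823% ± 0.622 of other B cells, and Flt3, a dendritic cell gene, in 4.95% ± 2.28 and 2.80% ± 1.79. Both were thus more frequent in members on average, with overlapping ranges over libraries. Only 5 of 16064 B cells, 2 of them members, had no UMI of 27 marker genes of other cell types.

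For a description across all genes, UMIs were summed per library over the members and over 4781 other B cells drawn to match the members' UMI totals (median 4592 UMIs in members and 4258 in the drawn cells, against 3770 before drawing). The 2 sums of each library were compared with edgeR's quasi-likelihood test with the library as a block, and a gene was called at a Benjamini-Hochberg adjusted p under 0.05. Both states were chosen by counts in the same cells, so the calls describe how regular a gene's difference was over libraries and are no independent test of the state. Of 9534 genes tested, 1173 (12.3%) were called, 613 (6.43%) of them higher and 560 (5.87%) lower in members. The median log2 difference over all tested genes was 0.00. DESeq2 called 1089. The other B cells contained plasma cells, so the list counts are also given with both states restricted to cells with UMIs of both Ms4a1 and Pax5, an alternative chosen after seeing the data; that fit called 540 of 8432 genes (6.4%), 331 higher (3.93%) and 209 lower (2.48%).

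NR4A and EGR genes stood highest. Of the 7 listed NR4A and EGR family and co-repressor genes 6 were tested, 5 were called higher and 0 lower, with a median log2 difference of 1.93. Among cells with Ms4a1 and Pax5 UMIs the counts were the same and the median was 2.18. Egr2, a paralog of Egr3 that also restrains antigen receptor signalling, was at 21.02 to 71.5 CPM in members (median 34.6 over 11 libraries) and at 1.88 to 19.2 CPM in other B cells (median 4.69). The states did not overlap, and the log2 difference was 2.82 (SE 0.167, edgeR adjusted p = 5.32e-09). Nr4a3, an orphan nuclear receptor of the early response, was at 32.5 to 96.2 CPM in members (median 47.2) and 0.0 to 16.1 in other B cells (median 9.71). Here too every member value was above every value of the other B cells, with a log2 difference of 2.49 (SE 0.137, edgeR adjusted p = 2.57e-09).

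Nr4a1, the nuclear receptor whose transcription is widely used to report antigen receptor signalling, was the most abundant of the group. It was at 424 to 1064 CPM in members (median 838) and 146 to 435 CPM in other B cells (median 351). The ranges touched only because the lowest member value, in p21mTertCD_1, lay just under the highest value of the other B cells; within each of the 11 libraries members were higher, by 1.18 on the log2 scale (SE 0.037, edgeR adjusted p = 1.55e-12). Egr1, the founding EGR factor, was at 517 ± 150 CPM against 115 ± 34.5 (log2 2.00). Nr4a2 was at 46.1 ± 20.4 against 12.2 ± 8.06 CPM (log2 1.85). Both were higher in members in 11 of 11 libraries.

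**Figure D1:**
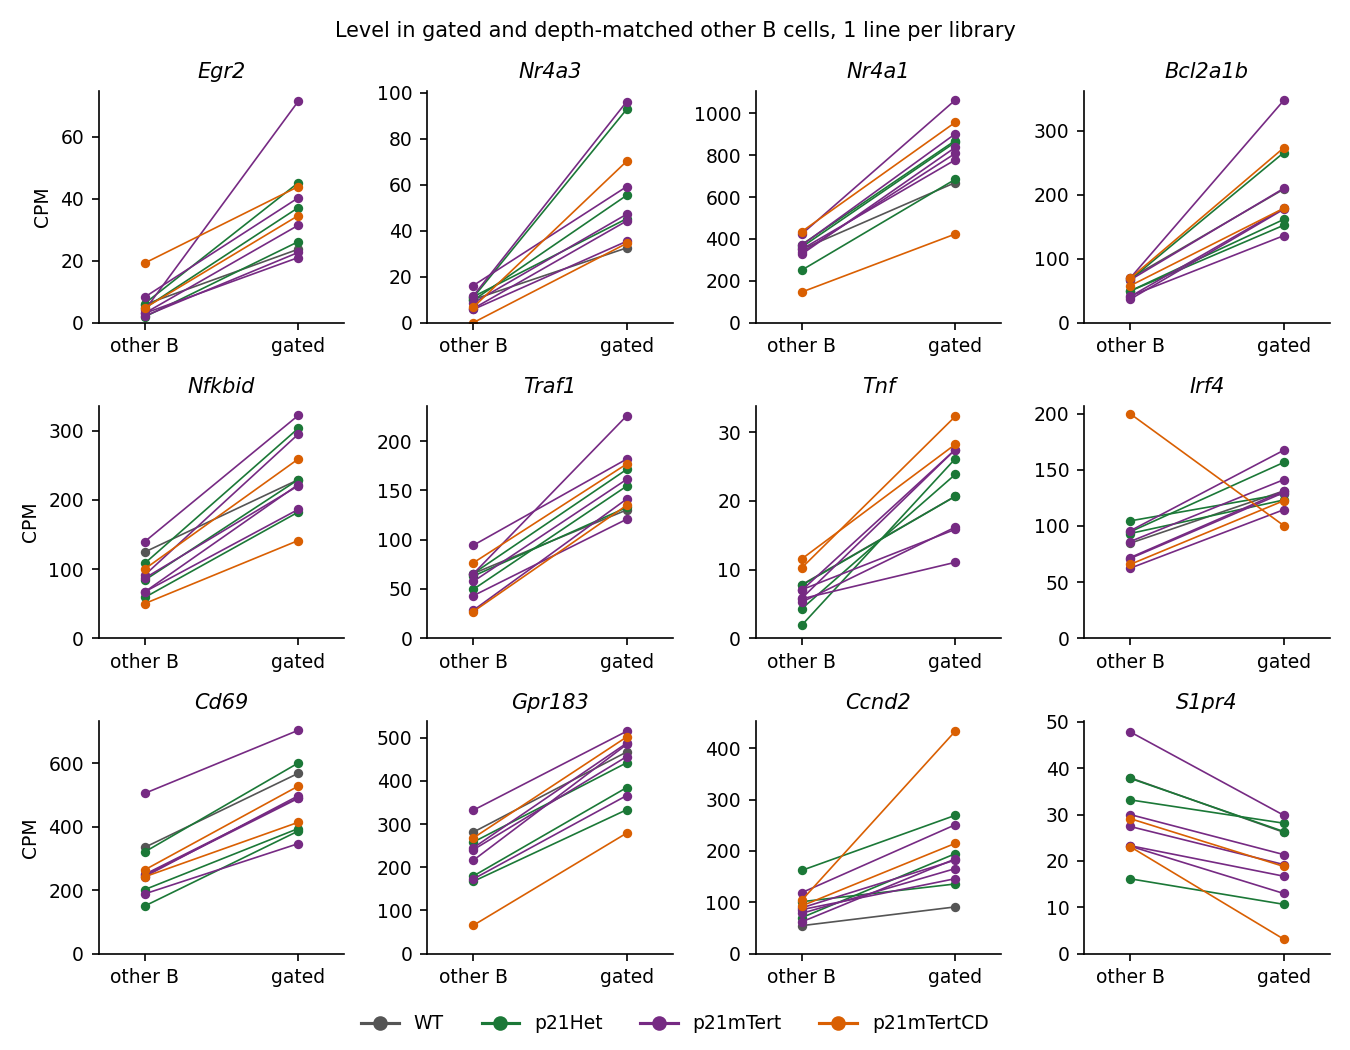
Levels of 12 genes in CPM of the summed cells (linear axes from 0), with 1 line per library from the drawn other B cells to the members. Egr2, Nr4a3, Bcl2a1b, Nfkbid and Traf1 show no overlap between states, Irf4 falls in 1 library, p21mTertCD_1, and S1pr4 falls in all 11.

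The NF-kB list was called almost as a whole. Of 15 listed subunit, inhibitor and target genes, all 15 were tested, 14 were called higher and 0 lower, with a median log2 difference of 0.57 (12 higher and a median of 0.51 in the cells restricted to Ms4a1 and Pax5). Nfkbid, which encodes the atypical inhibitor IkBNS, was at 141 to 322 CPM in members (median 229) and 50.0 to 140 in other B cells (median 86.7), with a log2 difference of 1.35 (SE 0.062, edgeR adjusted p = 2.95e-10). Bcl2a1b, an NF-kB target that protects B cells from apoptosis, was at 136 to 348 CPM in members (median 179) and 36.6 to 69.6 in other B cells (median 57.7). Its log2 difference was 1.82 (SE 0.068, edgeR adjusted p = 1.42e-11) and the states did not overlap. Its near-identical paralog Bcl2a1d differed by 1.75, and reads of the 2 copies may have been divided or lost in counting. Traf1, an adaptor of TNF receptors, was at 157 ± 30.5 against 57.7 ± 20.0 CPM (log2 1.34).

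The feedback inhibitors and the subunits differed by less. Rel, the c-Rel subunit needed for B cell growth, was at 600 ± 120 CPM in members and 341 ± 71.4 in other B cells (log2 0.74). Tnfaip3, the deubiquitinase A20, differed by 0.66, Nfkbia, encoding IkB alpha, by 0.58, Nfkbie, encoding IkB epsilon, by 0.57, and Nfkb1 by 0.34. The only listed gene not called was Bcl2l1, encoding Bcl-xL, at 6.24 ± 1.79 CPM in members and 7.79 ± 2.56 in other B cells (log2 -0.38, edgeR adjusted p = 0.111).

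RefSeq promoter windows (GRCm38.p6) of 300 bases, 250 before the transcript start and 50 after it, were searched for motifs. The 250 bases before the start are shown for 4 of these genes because the NR4A, EGR and NF-kB lists had the largest shares of genes called higher in members. They were picked after the motif search had been run. Capitals mark matches: a CArG box in Egr2 (chr10:67537619-67537868, plus strand; 4 of the 5 windows of this gene hold one, at 2 distinct sites, since windows overlap), an EGR site in Nr4a1 (chr15:101266596-101266845, plus strand) and in Bcl2a1b (chr9:89199023-89199272, plus strand), and an NF-kB site in Nfkbie (chr17:45555450-45555699, plus strand). The closing capitals of Nr4a1 are the beginning of an NF-kB match that runs past the start site.
Nr4a1: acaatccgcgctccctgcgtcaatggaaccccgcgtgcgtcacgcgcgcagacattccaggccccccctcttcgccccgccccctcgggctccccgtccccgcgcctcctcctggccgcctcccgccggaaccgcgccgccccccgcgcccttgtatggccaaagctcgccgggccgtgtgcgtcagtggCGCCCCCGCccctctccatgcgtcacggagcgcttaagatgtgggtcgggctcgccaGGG
Egr2: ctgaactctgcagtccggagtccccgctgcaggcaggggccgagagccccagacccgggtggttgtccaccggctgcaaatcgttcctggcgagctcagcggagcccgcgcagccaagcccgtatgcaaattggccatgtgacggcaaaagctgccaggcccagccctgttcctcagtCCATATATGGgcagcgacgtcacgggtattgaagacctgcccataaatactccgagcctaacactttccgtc
Nfkbie: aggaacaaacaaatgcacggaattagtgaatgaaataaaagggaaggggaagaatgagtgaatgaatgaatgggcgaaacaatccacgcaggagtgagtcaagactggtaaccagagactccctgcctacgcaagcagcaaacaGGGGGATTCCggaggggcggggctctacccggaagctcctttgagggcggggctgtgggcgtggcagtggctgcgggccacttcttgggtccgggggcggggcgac
Bcl2a1b: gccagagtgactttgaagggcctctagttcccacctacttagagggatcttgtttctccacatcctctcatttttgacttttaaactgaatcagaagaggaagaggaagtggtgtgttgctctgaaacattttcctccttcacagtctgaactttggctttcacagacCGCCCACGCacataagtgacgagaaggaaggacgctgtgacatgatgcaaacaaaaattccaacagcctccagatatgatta
Both strands were searched for the cyclic AMP element TGACGTCA, the EGR site GCGTGGGCG or GCGGGGGCG, the CArG box and the NF-kB site. No 2 matches overlapped in the windows printed. The EGR site was in 3.47% of 32851 windows of the genome and the NF-kB site in 8.46%, against 1.63% for the CArG box and 1.79% for the cyclic AMP element. Counted by gene, the NF-kB site was in 12.1% of tested genes and 15.7% of the 472 genes called higher with a window. The EGR site was in 7.84% and 9.11%, the CArG box in 1.52% and 3.602%, and the cyclic AMP element in 3.82% and 5.93%. Of 26 listed NR4A, EGR and NF-kB genes and markers, 20 had a window that was searched, of which 10 held an NF-kB site, 4 an EGR site, 1 a CArG box and 1 a cyclic AMP element. A match is a run of letters and not a measured binding site.

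AP-1 and early stress genes were higher in members in part. Of 17 listed, 16 were tested, 11 were called higher and 0 lower, with a median of 0.28 (12 of 15 higher and 0.36 in the Ms4a1 and Pax5 restricted cells). Fosb was at 469 ± 116 CPM in members and 263 ± 117 in other B cells (log2 0.81), and Dusp2, a phosphatase acting on MAP kinases, at 426 ± 98.1 and 222 ± 83.9 (log2 0.84). Fos was called with a smaller difference (log2 0.38), and its call was lost against all other B cells without matching (log2 0.19, edgeR adjusted p = 0.226). Jun was at 324 ± 84.8 CPM in members and 331 ± 111 in other B cells (log2 -0.11, edgeR adjusted p = 0.424), higher in members in 4 of 11 libraries; in the restricted cells its log2 difference turned to 0.28 (edgeR adjusted p = 0.241). The summed level of the list in members was 6580 to 10187 CPM, and 3894 to 7488 CPM in other B cells, with the highest sums of both states in libraries of the first source label. The part of dissociation in these values was not tested.

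Surface genes of activation and co-stimulation were called higher in 6 of 15 tested, with a median of 0.29 (5 of 14 and 0.19 in the restricted cells). Cd69, an early activation antigen that retains lymphocytes in tissue, was at 347 to 704 CPM in members (median 492) and 150 to 505 CPM in other B cells (median 247). It was higher in all 11 libraries, by 0.85 on the log2 scale (SE 0.062, edgeR adjusted p = 8.04e-08). Cd86, the ligand of CD28 on T cells, was at 107 ± 27.6 against 69.7 ± 24.4 CPM (log2 0.54), and Il21r, the receptor of a helper T cell cytokine, at 116 ± 18.4 against 78.0 ± 14.9 (log2 0.51). Slamf1 (log2 0.61) and Cd40 (log2 0.31) were called as well, but in the restricted cells Cd40 was at 0.14 and did not pass.

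Receptors of homing were divided. Of 10 listed and tested, 4 were called higher and 2 lower, with a median of -0.03 (3 higher, 3 lower and -0.06 in the restricted cells). Gpr183, the oxysterol receptor EBI2 that moves activated B cells to the outer follicle, was at 279 to 515 CPM in members (median 456) and 65.4 to 332 CPM in other B cells (median 240), higher in 11 of 11 libraries (log2 0.90, SE 0.057, edgeR adjusted p = 1.28e-08). Ccr6, the receptor of CCL20, was at 111 ± 33.8 against 62.5 ± 11.3 CPM (log2 0.76), and Cxcr5, the follicle receptor, at 195 ± 44.0 against 139 ± 39.9 (log2 0.43). Ccr7, which guides cells to the T zone, differed by 0.19 and by 0.04, not called, in the restricted cells. S1pr4, a sphingosine 1-phosphate receptor, was at 3.14 to 29.9 CPM in members (median 19.2) and 16.2 to 47.9 in other B cells (median 29.1). It was lower in members in all 11 libraries, by -0.62 on the log2 scale (SE 0.085, edgeR adjusted p = 0.000109). S1pr1, the receptor for exit into blood and lymph, was called lower (log2 -0.23) although members were lower in only 8 of 11 libraries.

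Among cytokines, 3 of 9 tested genes were called higher and 1 lower, of 13 listed, with a median of 0.47 (2 higher, 0 lower and 0.43 in the restricted cells). Tnf, the inflammatory cytokine, was at 11.1 to 32.3 CPM in members (median 23.9) and 1.88 to 11.5 in other B cells (median 6.97), a log2 difference of 1.68 (SE 0.154, edgeR adjusted p = 1.41e-06). Vegfa was the gene called lower, at 8.89 ± 4.45 against 20.2 ± 12.6 CPM (log2 -1.16), and did not pass in the restricted cells (log2 -0.83, edgeR adjusted p = 0.0787). Ccl4 and Ccl3, chemokines that attract T cells, were at 44.6 ± 30.9 against 25.0 ± 27.4 CPM and 19.4 ± 24.3 against 16.6 ± 33.6 CPM, and neither was called (edgeR adjusted p = 0.141 and 0.142). Mir155hg, the host transcript of a microRNA needed for B cell responses, was at 11.6 to 39.2 CPM in members (median 22.1) and 2.76 to 7.13 in other B cells (median 4.79), with no overlap (log2 2.14, SE 0.143, edgeR adjusted p = 2.19e-08). The transcription factor Bhlhe40 was at 58.3 ± 15.1 against 20.4 ± 5.86 CPM (log2 1.51).

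**Figure D2:**
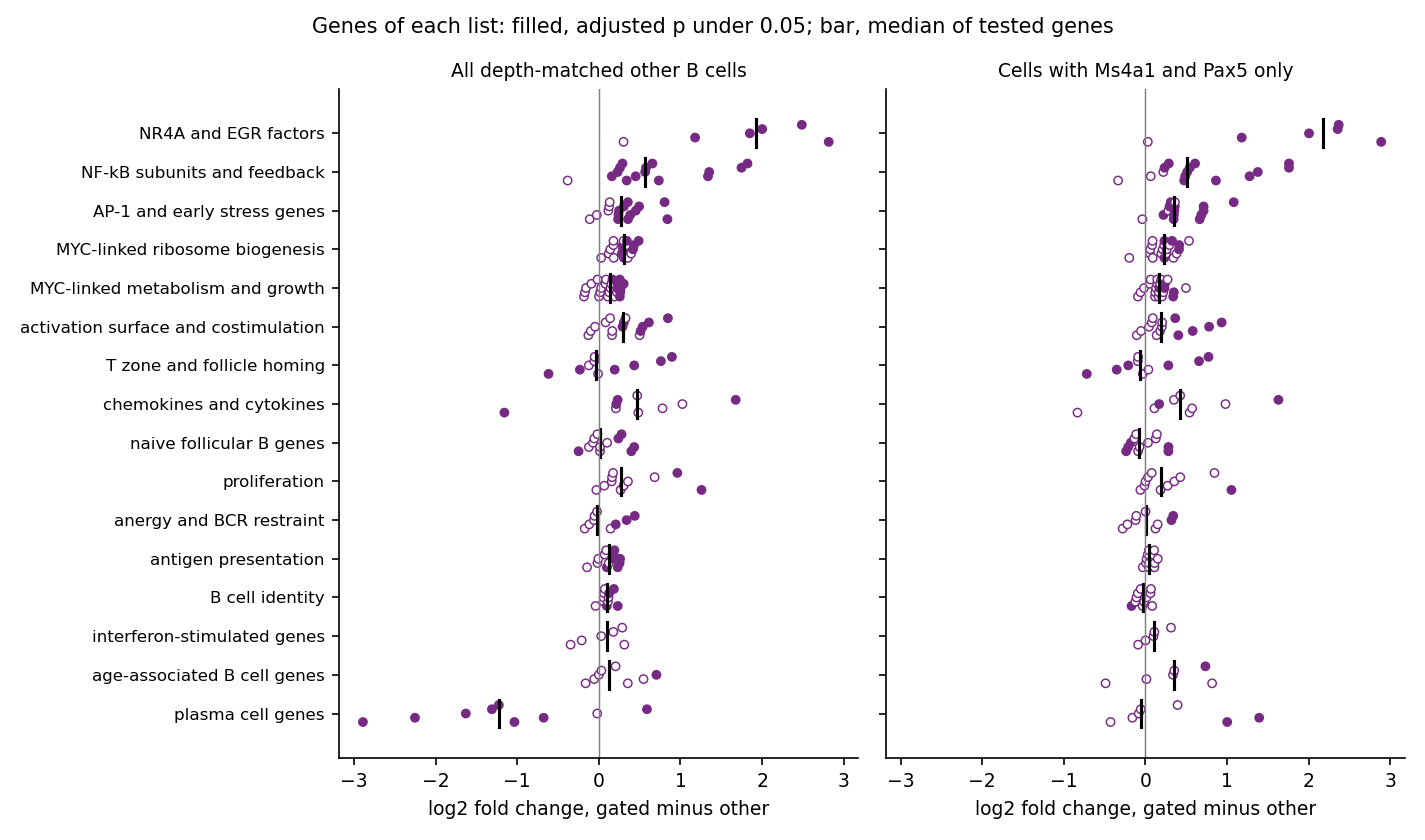
Log2 difference between members and drawn other B cells for the tested genes of each list (horizontal axis), for all drawn cells in 1 panel and for cells with Ms4a1 and Pax5 UMIs in the other; filled points are called by edgeR at an adjusted p under 0.05 and bars are list medians. The NR4A and EGR list has the highest median in both panels, and the plasma cell list, with a median of -1.23 over all drawn cells, is at -0.06 in the restricted panel.

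Genes of growth that are linked to Myc were called in part, all of those called being higher in members. Of 20 ribosome biogenesis genes tested, 10 were called higher and 0 lower, with a median of 0.31 (5 and 0.23 in the restricted cells). Ncl, encoding nucleolin, was at 613 ± 166 CPM in members and 454 ± 90.7 in other B cells (log2 0.31), Gnl3, encoding nucleostemin, at 106 ± 23.9 and 73.8 ± 16.8 (log2 0.42), and Nop58 at 72.2 ± 13.5 and 49.4 ± 7.41 (log2 0.43). All 3 were higher in 11 of 11 libraries. Of 24 metabolism and growth genes tested, 8 were called higher and 0 lower, with a median of 0.13 (5 of 23 higher and 0.17 in the restricted cells). Ldha, lactate dehydrogenase, was at 143 ± 17.1 against 112 ± 8.87 CPM (log2 0.27), and Odc1, a direct Myc target in polyamine synthesis, was not called (log2 0.14, edgeR adjusted p = 0.237).

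Cell cycle genes were represented by Ccnd2, the D-type cyclin of stimulated B cells. It was at 91.0 to 433 CPM in members (median 184) and 54.5 to 162 in other B cells (median 89.2), higher in 11 of 11 libraries (log2 0.96, SE 0.091, edgeR adjusted p = 1.8e-06). Only Ccnd2 and Top2a were called among 11 tested proliferation genes of 16 listed, with a median of 0.27 (1 of 11 and 0.19 in the restricted cells). Top2a, a gene of dividing cells, was at 2.21 to 119 CPM in members (median 16.7) and 3.76 to 33.0 in other B cells (median 7.05), and its difference of 0.85 in the restricted cells did not pass (edgeR adjusted p = 0.111). Mki67, another gene of dividing cells, was at 20.0 ± 20.8 against 10.7 ± 11.96 CPM and was not called (edgeR adjusted p = 0.168).

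Irf4, the fourth marker gene, was not used in the selection. Its level in members was 100 to 167 CPM (median 130) and in other B cells 62.4 to 200 CPM (median 86.1). It was higher in members in 10 of 11 libraries, by 0.59 on the log2 scale (SE 0.107, edgeR adjusted p = 0.0014). The exception was p21mTertCD_1, with 100 CPM in members and 200 in other B cells, where Jchain of the other B cells was at 23223 CPM. Without that library the log2 difference was 0.66, and in cells with Ms4a1 and Pax5 UMIs it was 1.00.

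Follicular B cell genes moved in both directions by small amounts, and most genes of antibody secretion were lower in members. Of 12 naive follicular genes tested, 4 were called higher and 1 lower, with a median of 0.01. In the restricted cells the balance turned, with 2 called higher, 3 lower and a median of -0.08. Bach2, a repressor of plasma cell fate, was called lower there (log2 -0.18) and was not called over all drawn cells. Cr2, encoding the complement receptor CD21, was at 116 ± 31.0 CPM in members and 82.5 ± 36.2 in other B cells (log2 0.40), and Fcer2a, encoding CD23, at 223 ± 49.4 and 178 ± 68.9 (log2 0.28; 0.14 and not called in the restricted cells). Ighd, the IgD heavy chain of unswitched B cells, was at 712 ± 177 and 688 ± 252 CPM (log2 0.01) and was not called. Of 9 plasma cell genes tested, 7 were called lower and 1, Irf4, higher, with a median of -1.23. Jchain, which joins secreted IgM and IgA, was at 6.27 to 2971 CPM in members (median 408) and 882 to 23223 in other B cells (median 2499), lower in members in 11 of 11 libraries (log2 -2.89, SE 0.362, edgeR adjusted p = 3.94e-05).

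The plasma cell calls did not hold in cells with Ms4a1 and Pax5 UMIs. There edgeR called 0 of 7 tested plasma cell genes lower, and Irf4 and Jchain were called higher, with a list median of -0.06. Jchain thus turned direction, to 1.39 (SE 0.413, edgeR adjusted p = 0.0484). Over all drawn cells, the 12 named genes with the largest negative differences were Jchain, Slpi, Derl3, Igkc, Fkbp11, Prdm1, Eaf2, Fam46c, Creld2, Txndc5, Tram2 and Prdx4, among them genes of antibody folding and secretion. They were taken from called genes at 20 CPM or more that were lower in every library. Immunoglobulin V genes and mitochondrial genes were left out, so this is not a ranking of all genes. In the restricted cells Fam46c was at 0.37 and Creld2 at 0.04, and neither was called. Among cells with at least 3 heavy-chain UMIs, those with more UMIs of switched classes than of Ighm and Ighd made up 2.05% ± 1.89 of members and 4.16% ± 6.13 of other B cells, or 1.41% ± 1.76 of other B cells with fewer than 10 Jchain UMIs (SD over 11 libraries, before depth matching). Without p21mTertCD_1, where 18.7% of other B cells were of switched classes, these shares were 1.73% ± 1.65, 2.71% ± 4.00 and 1.05% ± 1.36. The Jchain limit was not applied to the members, of which 5749 of 5783 had fewer than 10 Jchain UMIs. Of 13 antigen presentation genes 7 were called higher over all drawn cells, with a median of 0.12. In the restricted cells edgeR called 0 of them, with 4 at an unadjusted p under 0.05, and the median was 0.05.

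Lists of other B cell states were short, and their counts are read against the 12.3% of all genes called. Of 10 marginal zone and B1 genes tested, 1, Dtx1, was called higher and 2, Mzb1 and Zbtb20, lower (median -0.08), and in the restricted cells, where 6.4% of genes were called, edgeR called 0 of 10, with 3 at an unadjusted p under 0.05 (median 0.06). Of 8 age-associated B cell genes 1, Fcrl5, was called higher (median 0.12), as was 1 of 6 in the restricted cells (median 0.35). Of 4 germinal centre genes 1, Bcl6, was called higher at 32.9 ± 8.30 against 23.7 ± 6.10 CPM (log2 0.42), as was 1 of 3 in the restricted cells. Of 9 genes of anergy and receptor restraint tested, 3 were called higher (median -0.02), and 2 of 9 in the restricted cells (median 0.00). These were Cd72, an inhibitory co-receptor, at 179 ± 36.4 against 119 ± 33.5 CPM (log2 0.44), Nfatc1 (log2 0.34) and Ptpn6 (log2 0.21), the last not passing in the restricted cells. Of 6 tested interferon-stimulated genes, of 12 listed, edgeR and DESeq2 each called 0, with 2 at an unadjusted p under 0.05.

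Of the tested markers of natural killer cells (2), macrophages and monocytes (8) and erythroid cells (5), edgeR and DESeq2 called 0, with 1 macrophage marker at an unadjusted p under 0.05 in edgeR. Of 3 tested T cell markers edgeR called 0, with 3 at an unadjusted p under 0.05, and DESeq2 called 1. By edgeR 3 of 6 endothelial, 1 of 5 epithelial and 1 of 5 neutrophil markers were called lower. Without p21mTertCD_1, whose summed neutrophil markers were at 2504 CPM in members and 73.1 in other B cells, 4 of 5 neutrophil markers were called lower, with a median of -1.21 against -1.003 with it. Summed macrophage and monocyte markers were at 562 to 2596 CPM in members and 594 to 3244 in other B cells. Of 9 dendritic cell markers 2 were tested, and Flt3 was called higher, at 10.4 ± 3.83 against 5.87 ± 2.75 CPM (log2 0.79, edgeR adjusted p = 0.0254). In cells with Ms4a1 and Pax5 UMIs Flt3 was not called (log2 0.67, edgeR adjusted p = 0.164), whereas it was called at 1.15 among cells with a low share of other-type UMIs and at 0.93 against all other B cells without matching. In the cells with Ms4a1 and Pax5 UMIs 7 of 8 macrophage and monocyte markers had a difference above 0, with a median of 0.42 against 0.10 over all drawn cells. Of these 1, Csf1r, was called higher (log2 1.26, edgeR adjusted p = 0.0067), chosen after its value was seen. The NF-kB median of those cells, 0.51, stands beside that value, and the part of macrophage transcripts in the restricted values was not tested. There 1 of 5 neutrophil and 1 of 5 epithelial markers were called lower. Over all drawn cells summed T cell markers were at 21.8 to 69.4 CPM and 7.70 to 90.0 CPM. The summed dendritic cell markers were at 16.6 to 98.3 CPM in members (median 56.4) and 6.05 to 53.2 in other B cells (median 16.8). Members were higher in every library except WT_1 and p21Het_3. Cd83 and Cd86 are also expressed by dendritic cells, and the part of dendritic cell transcripts in the members' values was not tested.

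The levels were then described along the sum of the 3 selection genes. B cells without Zbtb32, Bhlhe41 or Sox5 UMIs were divided by their Egr3, Myc and Cd83 sum, which also divides cells by depth, and means over 10 or 11 libraries were taken at each step. Nr4a1 went from 227 CPM at a sum of 0 to 472 at 3, 540 at 4 and 1192 at 10 or more. Bcl2a1b was at 28.9, 80.5, 105 and 360 CPM and Gpr183 at 146, 317, 327 and 551 CPM at the same steps. Since the steps are the counts that the selection used, whose sampling error blurs neighbouring steps, nothing is read from them about where the state begins. Egr2 was at 3.07 CPM at a sum of 0, 6.87 at 3, 6.08 at 4, 18.4 at 6 to 9 and 77.1 at 10 or more. Irf4 was at 82.0, 87.4, 99.2, 118 and 192 CPM at those 5 steps. Members with a sum of at least 10 were 27.7% of all members.

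**Figure D3:**
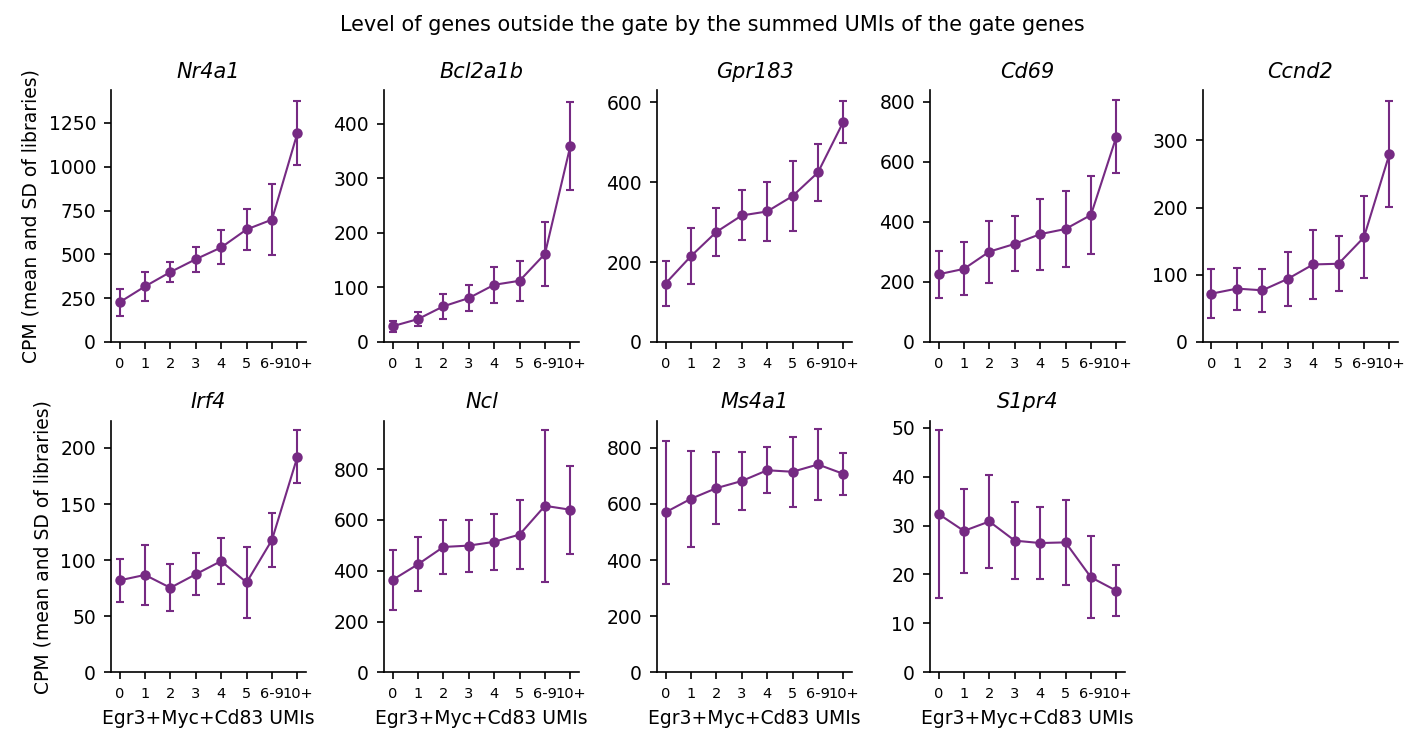
Mean level in CPM (vertical axes, SD over libraries as bars) of 9 genes against the summed Egr3, Myc and Cd83 UMIs of a cell (horizontal axis, 0 to 10 or more). Nr4a1, Bcl2a1b and Gpr183 climb over the steps, whereas Irf4 stays between 75.4 and 99.2 CPM up to a sum of 5 and reaches 192 at 10 or more.

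Members differed among themselves by which selection genes they carried. There were 2012 members with UMIs of both Egr3 and Myc (median 5062 UMIs per cell), 1451 with Egr3 without Myc (4335), 1083 with Myc without Egr3 (4501) and 1237 with neither (4288). Detection of a gene depends on depth and dropout, so these are ranges rather than types, and their values are given without a test. In the values that follow, Egr3 alone means without Myc, and Myc alone without Egr3, whatever the Cd83 count. Egr2 was at 61.3 ± 18.7 CPM with both and 41.0 ± 23.9 with Egr3 alone, but at 7.42 ± 4.89 with Myc alone and 7.84 ± 6.60 with neither. Tnf was at 35.0, 25.5, 9.69 and 6.16 CPM in the same order and Nfkbia at 453, 393, 230 and 271 CPM. The median selection sum was 10 with both, 6 with Egr3 alone, 6 with Myc alone and 5 with neither, so the ranges also differ in the counts that chose the members. Nfkbia ran from 151 to 612 CPM over libraries with Egr3 alone, which takes in its whole range of 167 to 283 CPM with Myc alone.

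Other genes were distributed differently over the 4 ranges. Ccnd2 was at 264 ± 84.6 CPM with both, 177 ± 53.4 with Egr3 alone, 167 ± 87.7 with Myc alone and 96.6 ± 41.0 with neither. Gpr183 was at 533, 432, 405 and 306 CPM. Cd86 was at 119 ± 24.2, 88.4 ± 33.7, 120 ± 26.1 and 108 ± 27.0 CPM and was thus lowest with Egr3 alone. Jchain was at 148 ± 299 and 250 ± 375 CPM over 11 libraries with both and with Egr3 alone, and at 123 ± 309 and 1571 ± 1040 CPM over 10 libraries with Myc alone and with neither. The members with neither had the highest mean, but their libraries ran from 6.32 to 3673 CPM and overlapped with the other ranges.

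The B cells with Zbtb32, Bhlhe41 or Sox5 UMIs were read as a further comparison set and were deeper, with a median of 7932 UMIs. Against them 3526 of 8475 tested genes (41.6%) were called by edgeR, 1706 higher (20.1%) and 1820 lower (21.5%) in members, with the same limit that both sets were chosen by counts. Of 12 naive follicular genes 10 were called higher in members, with a median of 1.21. Fcer2a was at 223 ± 49.4 CPM in members and 32.5 in the Zbtb32, Bhlhe41 or Sox5 cells (log2 2.70), and Cr2 at 116 ± 31.0 and 17.8 (log2 2.52). All 6 tested NR4A and EGR genes and 11 of 15 NF-kB genes were called higher, among them Nr4a3 (log2 3.41), Nfkbid (log2 2.36) and Nr4a1 (log2 2.31). Conversely, all 8 tested age-associated B cell genes (median -0.82), 9 of 10 plasma cell genes and 7 of 10 marginal zone and B1 genes were called lower. Jchain differed by -4.78 and Igha, the IgA heavy chain, by -6.03. Fewer than 10 Jchain UMIs were found in 721 of the 937 comparison cells and in 5749 of the 5783 members. No fit against this set was restricted by Jchain or matched for depth, and the part of plasma cells in these values was not tested. Irf4 and Ccnd2 were not higher in members here. Irf4 was at 132 CPM in members and 142 in the Zbtb32, Bhlhe41 or Sox5 cells (log2 -0.40, edgeR adjusted p = 0.0647), and Ccnd2 was called lower in members (log2 -0.53).

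The share of B cells that were members was then compared between genotypes, which the selection did not use. Among p21Het libraries it was 29.4%, 28.6% and 30.5%, and among p21mTert libraries 39.7%, 34.9%, 43.4%, 41.7% and 36.4%. The p21mTertCD libraries gave 22.4% and 42.4%, and WT gave 35.99%. No p21mTert library was as low as the highest p21Het library, whereas the p21mTertCD libraries lay on either side of the p21Het range, 1 of them within the p21mTert range. The single WT library also lay within the p21mTert range and above every p21Het library. Both denominators used as alternatives, chosen after seeing the data, moved p21mTertCD_1 into the p21Het range. Among B cells with fewer than 10 Jchain UMIs it was at 31.3% and the p21Het libraries at 29.6% to 32.8%, and among B cells without Zbtb32, Bhlhe41 or Sox5 UMIs it was at 33.1% and they were at 31.6% to 38.3%. The value of 22.4% rests on 174 B cells (exact 95% confidence interval 16.5% to 29.3%, counting error only). The p21mTert mean was 39.2% ± 3.55 (SD, n = 5) and the p21Het mean 29.5% ± 0.966 (SD, n = 3). The difference of 9.71 percentage points had a 2-sided exact permutation p of 0.0179, the smallest that 5 against 3 libraries can give, and an adjusted p of 0.107 over the 6 share tests, and so did not pass. This difference was 9.25 points among B cells with fewer than 10 Jchain UMIs and 9.33 among those without Zbtb32, Bhlhe41 or Sox5 UMIs. Each had an exact permutation p of 0.0357. With the latter denominator p21Het_2 was at 38.3% and p21mTert_2 at 39.4%, and the groups did not overlap. The p21mTert minus p21mTertCD difference was 6.82 points (exact permutation p = 0.333) and turned to -3.15 without p21mTertCD_1. It was 2.86 points among B cells with fewer than 10 Jchain UMIs and 3.86 among those without Zbtb32, Bhlhe41 or Sox5 UMIs. The p21mTertCD minus p21Het difference was 2.89 points (exact permutation p = 0.7), with 0.1 the smallest p possible, 12.9 points without p21mTertCD_1 and -7.09 without p21mTertCD_2. With the same denominators it was 6.39 and 5.48 points.

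The p21mTert minus p21Het difference in share was read within the library source labels. In the first label the single libraries were at 39.7% and 29.4%. In the later label alone the difference was 9.55 points (exact permutation p = 0.133, with 0.0667 the smallest possible for 4 against 2). Permutation within labels, an alternative chosen after seeing the data, gave an exact permutation p of 0.0333, the smallest possible.

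**Figure D4:**
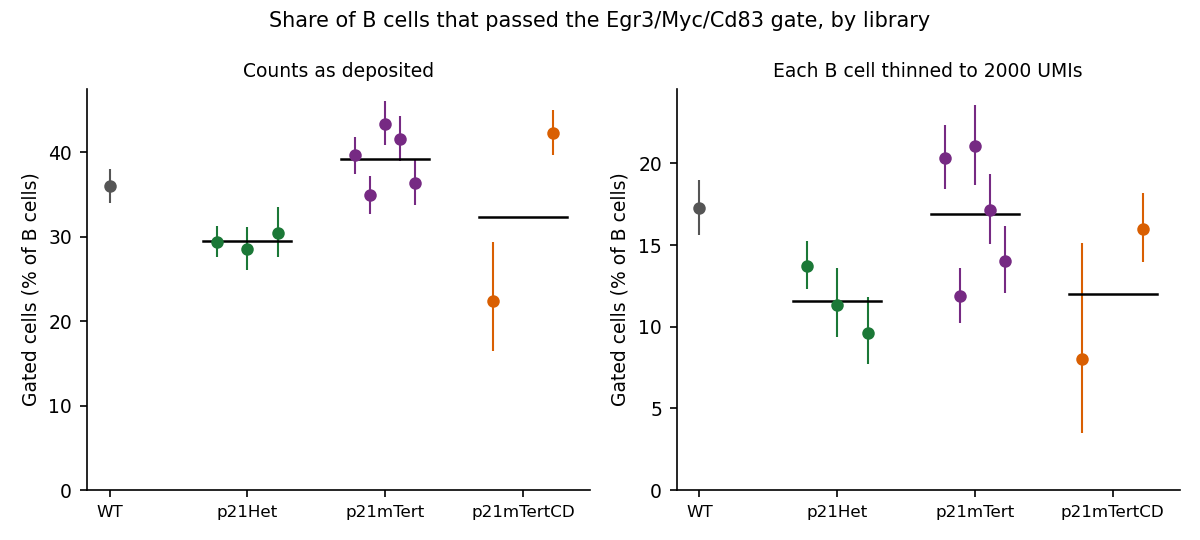
Members as a percentage of B cells in each library, by genotype, on unthinned counts and after B cells with at least 2000 UMIs were thinned to that number; points are libraries with exact 95% confidence intervals (counting error only) and horizontal bars are group means. On unthinned counts the 5 p21mTert points (34.9% to 43.4%) lie above the 3 p21Het points (28.6% to 30.5%); after thinning the groups overlap.

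A threshold on counts passes more cells where cells are deeper, so the share was also taken after thinning each B cell to 2000 UMIs, with the minimum of 3 Cd79a and Cd79b UMIs applied again. This left out 199 of 2181 B cells in WT, 713 of 4591 in p21Het, 1075 of 7770 in p21mTert and 227 of 1522 in p21mTertCD. Most of them fell under the Cd79a and Cd79b minimum after thinning (155, 629, 930 and 215 cells) and the others had fewer than 2000 UMIs, so the thinned shares are over a differently selected set of B cells. The member rule was applied to the thinned counts as well. A B cell that lost all its Zbtb32, Bhlhe41 and Sox5 UMIs in thinning could thus become a member. The p21Het libraries then had 13.7%, 11.4% and 9.62%, the p21mTert libraries 20.3%, 11.9%, 21.05%, 17.1% and 14.0%, the p21mTertCD libraries 8.0% and 15.98%, and WT 17.3%. The groups p21mTert and p21Het overlapped, through p21mTert_2 and p21Het_1, and differed by 5.32 points (16.9% ± 3.96 against 11.6% ± 2.06, exact permutation p = 0.0893, adjusted p = 0.268). Without the minimum after thinning, an alternative chosen after seeing the data, the difference was 5.42 points (exact permutation p = 0.107). Median UMIs per B cell were 4404 ± 545 in p21mTert and 4698 ± 1058 in p21Het (exact permutation p = 0.589).

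A reading without a threshold, added after the shares had been seen, summed the 3 genes over all B cells of a library. Their summed level was 805, 510 and 639 CPM for p21Het, 968, 694, 836, 871 and 794 CPM for p21mTert, 282 and 860 CPM for p21mTertCD and 858 CPM for WT. The p21mTert and p21Het libraries overlapped, and the difference of 182 CPM (833 ± 100 against 651 ± 148) had an exact permutation p of 0.0893. By gene, the differences were 113 CPM for Cd83 (exact permutation p = 0.0714), 38.6 CPM for Egr3 (exact permutation p = 0.25) and 30.4 CPM for Myc (exact permutation p = 0.125). Without the B cells with Zbtb32, Bhlhe41 or Sox5 UMIs the difference of the sum was 218 CPM (exact permutation p = 0.0536). Among B cells with fewer than 10 Jchain UMIs it was 187 CPM (exact permutation p = 0.107).

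Within the members, the targeted gene was examined first. Cdkn1a (ENSMUSG00000023067, chr17:29090976-29100727 on GRCm38) gave 37.4, 37.5 and 42.7 CPM for p21Het, 23.3, 30.0, 15.0, 29.0 and 17.0 CPM for p21mTert and 30.9 CPM for WT. The p21mTertCD libraries gave 6.28 CPM, from 2 UMIs, and 14.9 CPM. All p21Het libraries lay above all libraries with an mTert or mTertCD allele. On the log2 scale, p21mTert minus p21Het was -0.77 (SE 0.225, unadjusted p = 0.00498) and p21mTertCD minus p21Het was -1.47 (SE 0.357, unadjusted p = 0.00132), and the edgeR adjusted p was 1 in both. Members held 2, 0 and 2 UMIs of Tert for p21Het, 10, 4, 6, 2 and 2 for p21mTert, 0 and 6 for p21mTertCD and 6 for WT, too few to be tested.

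Between p21mTert and p21Het, edgeR called no gene in the members, 0 of 11049 tested (0.0%), with 410 at an unadjusted p under 0.05, and DESeq2 called 9. Of 6 tested NR4A and EGR genes 3 had a difference above 0, with a median of -0.002, and of 15 NF-kB genes 7, with a median of -0.06, against 5583 of all tested genes with a median of 0.003. Nr4a1 was at 878 ± 114 CPM in p21mTert (n = 5) and 806 ± 105 in p21Het (n = 3), a log2 difference of 0.14 (SE 0.200). Irf4 was at 137 ± 19.6 and 136 ± 18.0 CPM (log2 0.01, SE 0.123). For p21mTertCD minus p21Het edgeR called 0 (0.0%), with 419 at an unadjusted p under 0.05 and 2 by DESeq2. For p21mTert minus p21mTertCD it called 1 (0.00905%), Igkv3-2, an immunoglobulin light-chain V gene, at 373 and 24.4 CPM in the p21mTertCD libraries and at most 2.00 CPM in p21mTert ones (log2 -7.22, SE 0.857, adjusted p = 0.0184). Without p21mTertCD_1 the log2 difference was -4.33 (edgeR adjusted p = 0.269). The call was also lost without any single p21mTert library (edgeR adjusted p = 0.0825 to 0.106), with the replicate block (0.333), with a term for the source label (0.0842) and at a selection sum of at least 3 (0.385). Among other B cells before depth matching, Igkv3-2 was not confined to p21mTertCD. It was the most frequent light-chain V gene in p21mTert_4 (35.0% of 20 cells with an assigned gene) and p21Het_3 (18.75% of 16). The same held in p21mTertCD_1 (26.7% of 30) and p21mTertCD_2 (38.9% of 18). DESeq2 called 18 genes in this contrast.

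The genes nearest to the threshold between p21mTert and p21Het, named after their values were seen, were S100a4, Gm42031, Rell1, Gm16867 and Ifi208, all among the 9 that DESeq2 called. S100a4, which encodes a calcium-binding protein of motile cells, gave 143, 150 and 194 CPM for p21Het, 85.5, 49.9, 39.0, 64.7 and 38.3 CPM for p21mTert, 65.9 and 101 CPM for p21mTertCD and 111 CPM for WT. The p21mTert libraries lay below all p21Het libraries (log2 -1.55, SE 0.218, edgeR adjusted p = 0.0532). Without p21mTert_1 the log2 value was -1.72 (edgeR adjusted p = 0.0187), and without any other library of its group it did not pass. Macrophage and monocyte markers were also lower on average in p21mTert. Their summed level in members was 1542, 2596 and 1782 CPM for p21Het and 1453, 563, 767, 1708 and 562 CPM for p21mTert, and in the drawn other B cells 3244, 1528 and 1683 against 1658, 1001, 860, 1898 and 594 CPM. Each of the 8 tested markers had a p21mTert minus p21Het difference under 0 in members, with a median of -0.65, and the groups overlapped in the sum. The part of macrophage transcripts in the S100a4 values was not tested. DESeq2 also called Lgals3 (log2 -1.14) and Alox5ap (log2 -1.16) lower in p21mTert, both named after their values were seen. The drawn other B cells showed the same order for S100a4, with 154, 71.8 and 129 CPM for p21Het and 40.1, 18.6, 20.97, 19.2 and 17.6 CPM for p21mTert.

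Gm42031, a long non-coding RNA gene (ENSMUSG00000110386, chr8:85125872-85132289 on GRCm38), was at 106 ± 32.7 CPM in the members of p21mTert libraries and 20.0 ± 9.58 in those of p21Het (log2 2.43, SE 0.333, edgeR adjusted p = 0.0532). It was at 18.7 CPM in WT and 15.7 and 25.6 in p21mTertCD. Its range in the other B cells was 68.3 to 130 CPM in p21mTert and 7.37 to 27.5 in p21Het. Rell1, a TNF receptor-like gene, was at 14.7 ± 4.98 against 45.4 ± 15.8 CPM (log2 -1.60, SE 0.243, edgeR adjusted p = 0.0718). Gm16867 had 0 UMIs in 5 p21mTert libraries and 54 in 3 p21Het libraries (edgeR adjusted p = 0.0718). Ifi208 was at 1.23 ± 0.637 against 10.4 ± 2.07 CPM (edgeR adjusted p = 0.0868). Without p21Het_2 the adjusted p of both Gm42031 and Rell1 was 0.0419.

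**Figure D5:**
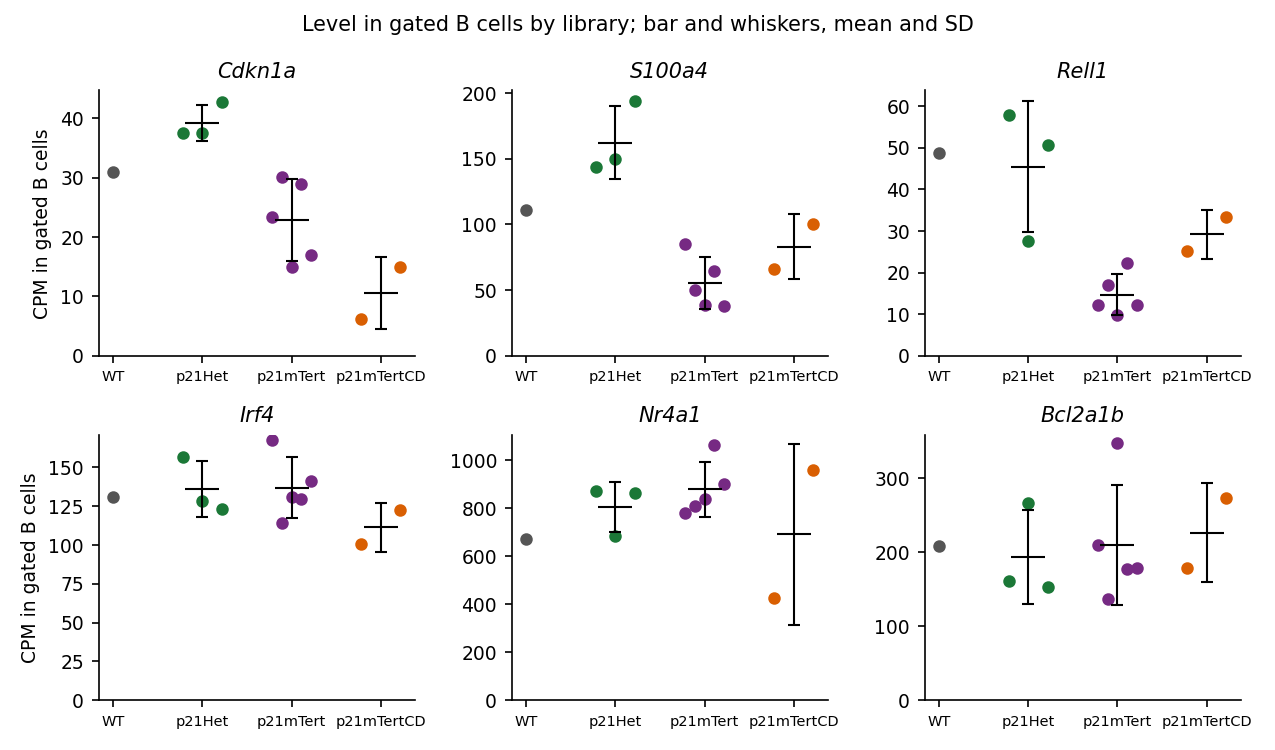
Levels in CPM (vertical axes from 0) of Cdkn1a, S100a4, Rell1, Irf4, Nr4a1 and Bcl2a1b in the members of each library, by genotype; points are libraries, horizontal bars group means and whiskers SD. Cdkn1a, S100a4 and Rell1 are lower in every p21mTert library than in every p21Het library, while Irf4, Nr4a1 and Bcl2a1b overlap.

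Whether a genotype difference was larger in members than in other B cells of the same libraries was tested with an interaction term. Between p21mTert and p21Het, edgeR called 0 of 11192 (0.0%), with 348 at an unadjusted p under 0.05 and 0 by DESeq2. The S100a4 and Gm42031 differences are thus not shown to be particular to the members. The interaction was called for 1 gene (0.00893%) for p21mTert minus p21mTertCD, Saa3, and for 2 genes (0.0179%) for p21mTertCD minus p21Het, Saa3 and Ccl17. In the latter contrast both calls were lost without p21Het_2 (edgeR adjusted p = 0.174 for Saa3 and 0.637 for Ccl17) and without p21mTertCD_2 (0.8 and 0.777), and DESeq2 did not call Ccl17 (adjusted p = 0.613). The Saa3 call for p21mTert minus p21mTertCD was lost without p21mTertCD_2 (edgeR adjusted p = 0.707). At a selection sum of at least 3 Saa3 turned direction in both contrasts, to -5.85 (edgeR adjusted p = 0.233) and 7.10 (edgeR adjusted p = 0.0356).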

How the data were processed

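Gene by cell tables of UMI counts of 11 libraries were used as the authors deposited them; reads had been mapped to mm10 with Cell Ranger, per the submitters' processing notes. The deposited counts hold 31053 genes and were not normalized. From them the cell filter, the B cell definition and the selection were applied in Python 3.11.15 (scipy 1.17.1). UMIs were summed per library and cell state, with at least 10 cells per sum, and tested by quasi-likelihood in edgeR (4.0.16, under R 4.3.3) after filterByExpr and TMM scaling, with Benjamini-Hochberg adjustment and a threshold of 0.05, with DESeq2 1.42.0 as an alternative. CPM are UMIs per 1000000 of the sum. The SE of an edgeR log2 difference is its absolute value divided by the square root of the quasi-likelihood F statistic. Genotype contrasts were fitted over the 10 replicated libraries, and shares were compared with 2-sided exact permutation tests. Other B cells were drawn within bins of 0.25 log2 UMIs. The fit between cell states and the fit between genotypes were run on simulated counts with the same dispersion for every gene. Apart from the changed genes, all simulated libraries had the same gene proportions. The simulation thus does not test how the fits handle differences between libraries such as the source label. Scrublet ran in scanpy 1.11.5 at 0.8% doublets per 1000 barcodes. Named genes are members of the gene lists and, for each cell comparison, the 12 largest called differences in each direction at 20 CPM or more with 1 direction in every library. Immunoglobulin V genes and mitochondrial genes were left out of these 12. Members, lists and tests were chosen with earlier results of these data known. Gene positions are from GENCODE M21 (GRCm38).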

Additional observations from a re-analysis of the deposited data

Results flagged for a closer look

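Between the 2 cell states, Saa3, an acute-phase gene, differed by genotype. Its interaction was 8.56 on the log2 scale for p21mTert minus p21mTertCD and -7.15 for p21mTertCD minus p21Het (edgeR, called in both). Both values rest in part on the drawn other B cells of 1 library, p21mTertCD_2, at 103 CPM, against 0.562 CPM in the members of that library and at most 14.1 CPM in the members of any library. The p21mTertCD minus p21Het call was also lost without p21Het_2 (edgeR adjusted p = 0.174). With a selection sum of at least 3 in place of 4 the interactions were -5.85 and 7.10 in the same order of contrasts. Ccl17, a chemokine of activated dendritic cells, had an interaction of 7.19 for p21mTertCD minus p21Het. In p21mTertCD_2 it was at 96.7 CPM in members, whose summed dendritic cell markers were at 98.3 CPM, the highest of all libraries, and at 0.787 CPM in its other B cells. The part of dendritic cell transcripts was not tested.

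Tram2 was at 13.7 CPM in the members of p21mTert_4 and at 7.01 to 7.95 CPM in those of the other p21mTert libraries. It was the only 1 of 42 sets of 5 p21mTert values with such a gap. Chance alone gives such a gap in about 1 of 20 sets, which is more often than the 1 of 42 seen.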

How the results depend on the processing

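For the share of B cells that were members, p21mTert minus p21Het, every setting kept the direction. The difference was 9.55 points (exact permutation p = 0.133) in the later source label alone. With a replicate block, which leaves 3 pairs, it was 9.83 points (exact permutation p = 0.25). Leaving out 1 library at a time gave 8.66 to 10.8 points, and the exact permutation p was 0.0571 without p21mTert_1 or without p21mTert_5. The same omissions gave -3.15 to 16.8 points for p21mTert minus p21mTertCD and -7.09 to 12.9 for p21mTertCD minus p21Het, which was -0.17 at a selection sum of at least 3. For thinned shares they gave 4.28 to 6.57, 0.90 to 8.88 and -3.56 to 4.42 points in the same order of contrasts. The thinned p21mTertCD minus p21Het difference was -1.19 at a sum of at least 3, -0.54 with the replicate block and -0.23 without the Cd79a and Cd79b minimum after thinning. The summed Egr3, Myc and Cd83 level, p21mTert minus p21Het, ranged from 111 to 258 CPM over these omissions. Replicate numbers only name libraries, and correlations of same-numbered libraries ran from -0.144 to 0.205.

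Genes called between members and other B cells numbered 1898 against all other B cells without matching, 751 among cells with a low share of other-type UMIs, 540 in cells with Ms4a1 and Pax5 UMIs and 888 to 1259 with 1 library left out. Against the Zbtb32, Bhlhe41 or Sox5 cells they numbered 3113 to 3633 with 1 library left out. Within members, p21mTert minus p21Het gave 9 with DESeq2, 6 at a sum of at least 3, 21 without the filter on low counts, 2 without Scrublet-marked cells and 0 to 2 with 1 library left out (2 without p21Het_2, 1 without p21mTert_1). For p21mTert minus p21mTertCD the counts were 18 with DESeq2, 18 without the filter, 0 at a sum of at least 3, 0 with the replicate block, 0 with a term for the source label and 0 to 20 with 1 library left out (20 without p21mTertCD_2, 3 without p21Het_1, 0 without any p21mTert library or p21mTertCD_1). For p21mTertCD minus p21Het they were 2 with DESeq2, 3 without the filter and 0 to 10 with 1 library left out (10 without p21mTertCD_2). The interaction counts without the filter on low counts were 55 for p21mTert minus p21Het, 112 for p21mTert minus p21mTertCD and 106 for p21mTertCD minus p21Het. With 1 library left out they were 0 to 0, 1 to 8 and 0 to 3 in that order. The p21mTert minus p21mTertCD interaction gave 0 at a sum of at least 3, 2 without Scrublet-marked cells and 3 with the label term, and the p21mTertCD minus p21Het interaction gave 1 with DESeq2. Within members the replicate block changed no other call. It was not fitted for the interactions or between cell states. The cause of these changes was not tested.

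Of the values of named genes under settings other than leaving out a library, 1160 kept direction and call, 82 lost the call, 34 gained it and 17 reversed. The reversals were, in cells with Ms4a1 and Pax5 UMIs, Jchain at 1.39, Fam46c at 0.37, Creld2 at 0.038, Igha at 0.21, Jun at 0.28, Ms4a1 at -0.11, Pax5 at -0.12 and Ighd at -0.14, then Igha at 0.31 among cells with fewer than 10 Jchain UMIs, and Saa3 at -5.85 for p21mTert minus p21mTertCD and 7.10 for p21mTertCD minus p21Het at a sum of at least 3. In cells with Ms4a1 and Pax5 UMIs 29 of 92 named genes tested between members and other B cells lost their call. Other values near 0 changed sign with no call: Ighd at -0.018 with DESeq2, -0.050 at a sum of at least 3, -0.027 without Scrublet-marked cells, -0.056 among cells with fewer than 10 Jchain UMIs and -0.042 to 0.035 with 1 library left out, Odc1 at -0.014 at a sum of at least 6, and Irf4 between p21mTert and p21Het at -0.0070 without Scrublet-marked cells and -0.078 to 0.057 with 1 library left out. The planned comparison among cells without any other-type UMI was not run, since 5 cells remained. The 39 members of p21mTertCD_1 limit every p21mTertCD contrast.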
